A study of Mus musculus with 4 samples.

Results

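The 6 genes described here encode the 3 transforming growth factor beta (TGF-beta) ligands, Tgfb1, Tgfb2 and Tgfb3, and the TGF-beta receptors Tgfbr1, Tgfbr2 and Tgfbr3. All 6 were found by symbol among the 27998 genes of the count tables. They were followed through 4 single-cell RNA libraries of sorted heart cells from C57Bl6J mice, for which no mutant allele and no treatment is given. The libraries came from embryos at embryonic day 12 (E12, 37 animals pooled) and embryonic day 15 (E15, 48 animals), from pups at postnatal day 2 (P2, 21 animals) and from adults 8 weeks old (Adult, 6 animals). Cells carrying CD31, a surface protein of endothelial cells, and lacking CD45, a protein of leukocytes, were sorted from each pool and frozen. After thawing, dead cells were removed from the embryonic samples, while the P2 and Adult samples were sorted again. Each stage is 1 library, so stage and library cannot be told apart and no test was possible. Every interval given is a 95% interval that covers counting error only.

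TGF-beta ligands are secreted dimers that are stored in the matrix in a latent form and act once they are released. An active dimer is bound by the type II receptor, the product of Tgfbr2, which recruits the type I receptor, the product of Tgfbr1, and this kinase in turn phosphorylates Smad2 and Smad3. In the embryonic heart the pathway is known for its part in the transition of endocardium into the mesenchyme of the valve cushions.

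Cells were placed in classes by the unique molecular identifiers (UMIs, each standing for a captured RNA molecule) of marker genes other than the 6. A cell was endocardial where its UMIs of Npr3 and Tmem108 outnumbered those of Fabp4, Cldn5 and Aplnr, and coronary where it held at least 2 UMIs of the latter genes and these were the more numerous. A cell was placed in the valve class with at least 2 UMIs of Cldn11, Enpp2 and Aqp8, and in the non-endothelial class with no UMI of Pecam1, Cdh5 and Egfl7, so that classes could overlap. The endocardial class held 1716 cells at E12, 2115 at E15, 1082 at P2, then 75 among Adult cells, and the coronary class 113, 1254, 4596 and 4077. The valve class held 21, 65, 427 and 22 cells, and the non-endothelial class 2995, 1867, 13 and 133. Levels are given as CPM, the number of UMIs of a gene scaled to a class total of 1000000 UMIs. A ratio of levels was called past 2-fold by its value alone, where both groups together held at least 20 UMIs of the gene. Because the libraries count the ends of transcripts in pooled cells, levels were compared between classes and stages for each gene and not between genes.

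The 4 libraries held between 4242 and 6062 cells, with a median of 1013 to 1510 UMIs per cell at E12, E15 and in the Adult and of 4532 at P2. Markers that the classes had not used followed the class names. The summed level of the endocardial genes Plagl1, Cytl1, Hapln1, Nfatc1 and Gata4 was 1440 CPM in endocardial against 572 CPM in coronary cells at E12, and 2390 against 151 CPM in the Adult, while that of the coronary genes Cd36, Aqp1, Kcne3, Timp4 and Car4 was 53.4 against 280 CPM at E12 and 829 against 5820 CPM in the Adult. Of these, Timp4 and Car4 had no UMI in the E12 coronary cells. The valve class was less well marked, since Wnt4 and Cryab had no UMI in it at E12, and 37.9% of its P2 cells held a UMI of the lymphatic genes Prox1, Mmrn1 and Ccl21a. A UMI of another endothelial gene (Kdr, Tie1, Tek, Emcn, Esam or Erg) was also found in some non-endothelial cells. Their share was 25.3% at E12, 44.8% at E15, 69.2% at P2, then 66.9% among Adult cells. The endocardial rule was also met by 596 of the non-endothelial cells at E12 and 545 at E15. The coronary rule was met by 7 at E12, 181 at E15, 11 of 13 at P2 and 101 of 133 in the Adult. Between 25 and 60 cell barcodes were shared by any pair of libraries.

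The members lie on 6 different chromosomes of the mouse genome build GRCm38 and all are protein-coding genes. Tgfb1 is at chr7:25687002-25705077 on the plus strand, Tgfb2 at chr1:186622792-186705989 on the minus strand and Tgfb3 at chr12:86056745-86079041 on the minus strand. Tgfbr1 is at chr4:47353222-47414931 on the plus strand, Tgfbr2 at chr9:116084293-116175360 on the minus strand and Tgfbr3 at chr5:107106570-107289629 on the minus strand. The 250 bases before the annotated start of Tgfb1 and Tgfb2 are shown from RefSeq (build GRCm38.p6, 5′ to 3′ on the strand of the gene), because these are the ligands whose levels differed most plainly between endocardial and coronary cells, in opposite directions at E12. They are at chr7:25686752-25687001 for Tgfb1 and chr1:186705990-186706239 for Tgfb2, and capitals mark matches, on either strand, to the GC box GGGCGG and the TATA box TATAAA.
Tgfb1: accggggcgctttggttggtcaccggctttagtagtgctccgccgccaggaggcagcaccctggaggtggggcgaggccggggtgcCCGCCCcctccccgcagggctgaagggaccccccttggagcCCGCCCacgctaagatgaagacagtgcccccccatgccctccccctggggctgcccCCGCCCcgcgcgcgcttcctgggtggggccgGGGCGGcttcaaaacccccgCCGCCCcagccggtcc
Tgfb2: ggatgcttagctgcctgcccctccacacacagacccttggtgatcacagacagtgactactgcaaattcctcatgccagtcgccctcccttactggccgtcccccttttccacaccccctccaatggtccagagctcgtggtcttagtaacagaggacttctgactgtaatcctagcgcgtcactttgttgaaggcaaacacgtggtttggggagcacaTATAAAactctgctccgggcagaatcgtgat
The Tgfb1 window held 5 GC boxes and no TATA box, and 75.2% of its bases were G or C against a median of 52.4% over 32851 promoters. The Tgfb2 window held 1 TATA box, beginning 31 bases before the start, and no GC box, with 53.6% G or C. A GC box was present in 32.7% and a TATA box in 12.4% of all promoter windows of this length. No match to TGANTCA, the AP-1 site, was found in either, against 6.75% of all windows. Such matches describe letters only.

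Tgfb1, the ligand known for its part in the formation of vessels, was detected in every class at every stage. In coronary cells its level was 243 CPM (interval 185 to 313) at E12, 190 CPM at E15, 211 CPM at P2, then 69.0 CPM among Adult cells. In endocardial cells it was 97.8 CPM (85.9 to 111) at E12, 141 CPM at E15, 219 CPM at P2, then 43.1 CPM (19.7 to 81.8) among Adult cells. The classes were therefore furthest apart at E12, where the coronary level was 2.48 times the endocardial one (1.83 to 3.31). At the later stages the ratio was 1.35, 0.964 and 1.60, and none of these passed 2-fold. The E12 coronary value rests on 59 UMIs in 113 cells, and lymphatic markers summed to 638 CPM in those cells against 11.7 CPM in the endocardial cells. The ratio was between 2.32 and 2.83 under all 12 other settings, among them the one without lymphatic cells. The setting with no minimum of UMIs is counted among the 12 but keeps the same counts, so no called ratio could move under it.

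The Adult level of Tgfb1 was the lower one in both classes. From P2 to Adult the ratio was 0.326 (0.297 to 0.358) in coronary cells, from 5000 and 496 UMIs, and 0.197 (0.0897 to 0.375) in endocardial cells, from 1136 and 9 UMIs. Both passed 2-fold under all 12 other settings. The endocardial ratio was 1.44 from E12 to E15 and 1.55 from E15 to P2, neither past 2-fold. The depth per cell fell from P2 to the Adult as well. With each cell thinned to 500 UMIs, to set the depth equal, Tgfb1 was found in 9.53% of P2 and 2.85% of Adult coronary cells. In endocardial cells these shares were 10.8% and 1.33%, the latter from 1 cell. How much of the change in level came from depth was not tested. In order of level, E12 coronary cells came first with 243 CPM and P2 valve, endocardial and coronary cells followed within 221 to 211 CPM, with overlapping intervals.

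Tgfb2, the ligand needed for the remodelling of the outflow tract and valves, had the opposite distribution. In endocardial cells its level was 63.5 CPM (53.9 to 74.2) at E12, 65.4 CPM (55.7 to 76.4) at E15, 102 CPM (93.4 to 111) at P2, then 81.4 CPM (47.4 to 130) among Adult cells. In coronary cells it was 12.3 CPM (2.55 to 36.1) at E12, 12.5 CPM (7.74 to 19.1) at E15, 26.9 CPM (24.8 to 29.0) at P2, then 29.9 CPM (26.0 to 34.2) among Adult cells. The coronary level was the lower one at all 4 stages and the intervals did not overlap. The ratio of coronary to endocardial was 0.195 (0.0397 to 0.579) at E12, from 3 coronary UMIs, 0.191 (0.115 to 0.302) at E15, 0.264 (0.234 to 0.296) at P2, then 0.367 (0.224 to 0.642) among Adult cells.

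The Adult value of Tgfb2 depended on a single cell. Of the 17 endocardial UMIs, 9 came from 1 cell of 7139 UMIs that also met the valve rule, and without that cell the endocardial level was 39.7 CPM. The ratio was then 0.737, short of 2-fold, and it also fell short when valve cells and cells lacking the endothelial genes were left out of both classes. The embryonic and P2 ratios did not show this. At E12, where mesenchymal markers summed to 1110 CPM in endocardial against 251 CPM in coronary cells, leaving out those same cells lowered the endocardial level of Tgfb2 to 44.4 CPM and the ratio was 0.291. At P2 the ratio was between 0.153 and 0.264 under all settings, the lowest without the cells that held markers of both classes.

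Tgfb3, the third ligand, was scarce in endothelial cells. Its endocardial level was 6.06 CPM at E12, 6.54 CPM at E15, 14.1 CPM (11.0 to 17.7) at P2, then 14.4 CPM among Adult cells, and its coronary level 4.12, 2.98, 8.42 and 10.7 CPM. Several of these rest on very few molecules, with 1 coronary UMI at E12, 5 at E15 and 3 endocardial UMIs in the Adult. The coronary to endocardial ratio passed 2-fold at E15 with 0.455, but its interval of 0.130 to 1.30 includes 1. From E15 to P2 the level of Tgfb3 rose 2.15 times (1.24 to 3.97) in endocardial and 2.83 times (1.19 to 8.80) in coronary cells. The endocardial step was 1.82 times in cells with at least 1000 UMIs, whereas the coronary one stayed past 2-fold under all 12 other settings.

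**Figure D1:**
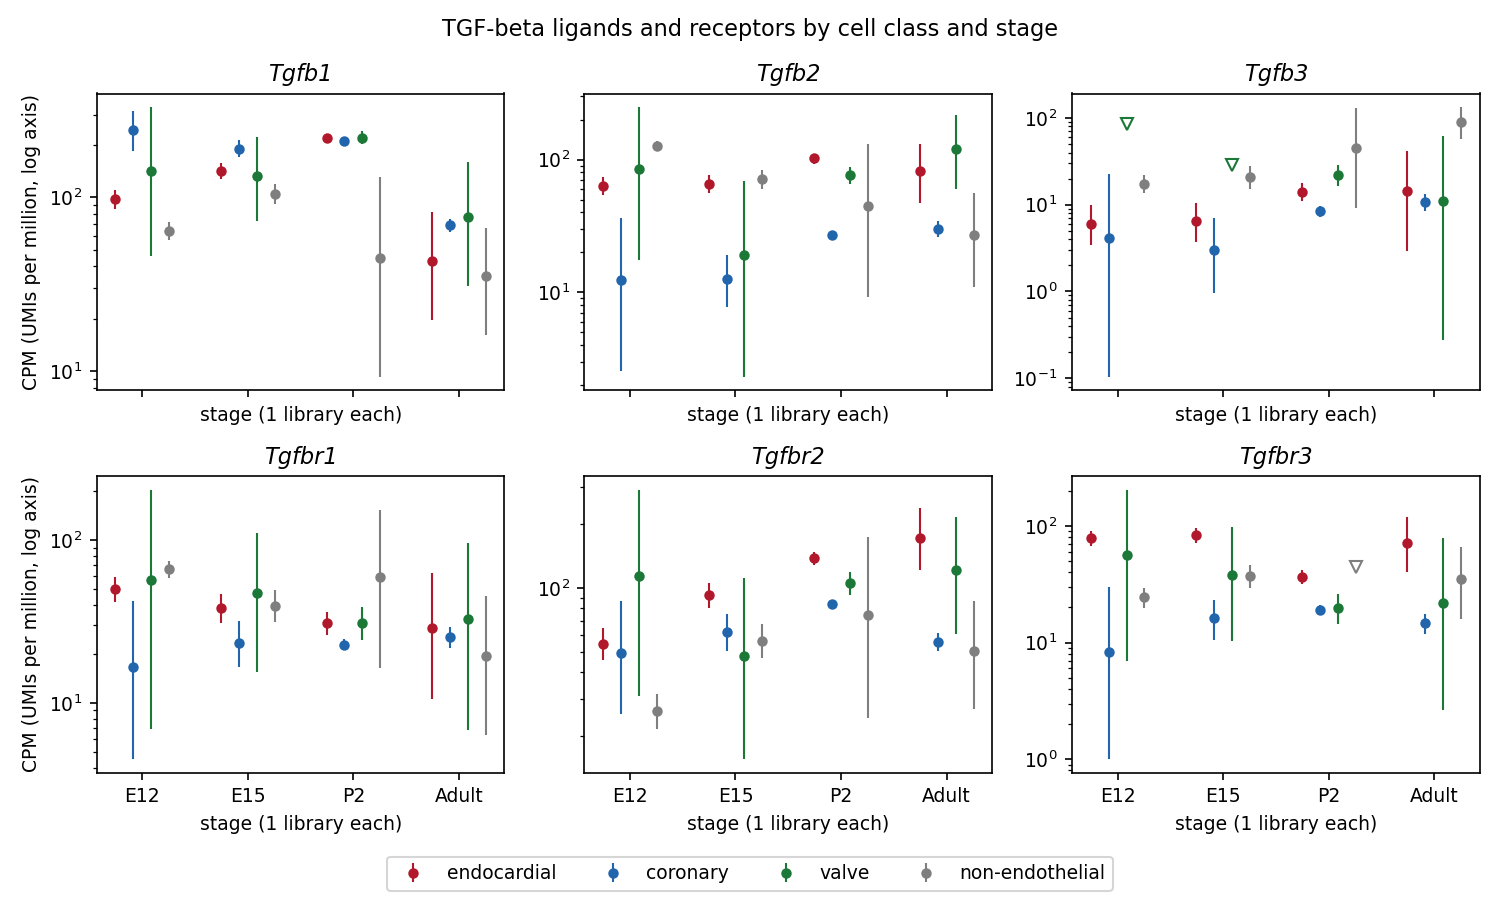
Levels of the 6 genes in each cell class at each stage, as CPM on a log axis, with 1 point per class and library and bars for the 95% counting interval (open triangles mark the limit that 3 UMIs would give where none was found). Tgfb2 and Tgfbr3 lie lower in coronary (blue) than in endocardial cells (red) at every stage, and Tgfb1 is at 69.0 CPM in Adult coronary cells against 190 to 243 CPM at the earlier stages.

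Tgfbr1, the type I receptor, was at 16.5 to 50.1 CPM in endocardial and coronary cells. Its endocardial level was 50.1 CPM (41.7 to 59.8) at E12, 38.4 CPM (31.1 to 47.0) at E15, 30.9 CPM (26.3 to 36.1) at P2, then 28.7 CPM among Adult cells, from 124, 94, 160 and 6 UMIs. The coronary level was 16.5 CPM at E12, 23.2 CPM at E15, 22.8 CPM at P2, then 25.3 CPM among Adult cells. Only the E12 ratio passed 2-fold, at 0.328 (0.0881 to 0.862). It rests on 4 coronary UMIs and was 0.611 when the class rules asked for 1 more UMI.

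Tgfbr2, the type II receptor that binds the ligand first, had a level in endocardial cells of 54.6 CPM (45.8 to 64.6) at E12, 92.4 CPM (80.7 to 105) at E15, 138 CPM (128 to 148) at P2, then 172 CPM (121 to 239) among Adult cells. In coronary cells it was 49.4, 61.9, 84.0 and 55.8 CPM. At E12 the coronary to endocardial ratio was 0.905 (0.456 to 1.63), from 12 coronary UMIs. It was 0.711 when valve cells and cells lacking the endothelial genes were left out of both classes. In the Adult the ratio was 0.323 (0.230 to 0.469), from 401 and 36 UMIs. That ratio was between 0.251 and 0.407 under the other settings. No single step between stages passed 2-fold, the step from E12 to E15 in endocardial cells being 1.69 times (1.36 to 2.11) and that from P2 to Adult in coronary cells 0.664.

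Tgfbr3 encodes betaglycan, a co-receptor without a kinase domain that presents the ligands, and Tgfb2 in particular, to the type II receptor. In endocardial cells its level was 78.4 CPM (67.8 to 90.3) at E12, 83.0 CPM (72.0 to 95.2) at E15, 36.5 CPM (31.5 to 42.1) at P2, then 71.8 CPM (40.2 to 119) among Adult cells. The coronary levels were 8.23, 16.1, 19.0 and 14.6 CPM, below the endocardial ones at every stage. The ratio was 0.105 (0.0126 to 0.384) at E12, from 2 coronary UMIs, 0.194 (0.125 to 0.290) at E15 and 0.203 (0.118 to 0.376) in the Adult. These 3 ratios stayed past 2-fold under all 12 other settings. At P2 the ratio was 0.522, just short of 2-fold, and it was 0.381 without cells that held markers of both classes. From E15 to P2 the endocardial level of Tgfbr3 fell, with a ratio of 0.440 (0.359 to 0.539). That ratio was 0.562 without cells that held markers of both classes and 0.527 in cells with at least 1000 UMIs. From P2 to Adult it was 1.97.

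Over all 4 stages, 23 of the 24 coronary to endocardial ratios of the members had enough UMIs. Of these, 10 passed 2-fold lower and 1 passed it higher. Over all genes, 13.2% of ratios passed 2-fold lower and 8.86% higher in this comparison. Tgfb2 gave 4 of the 10 lower ratios, Tgfbr3 gave 3, and Tgfb3, Tgfbr1 and Tgfbr2 gave 1 each. The background includes genes with few UMIs, whose ratios scatter widely.

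**Figure D2:**
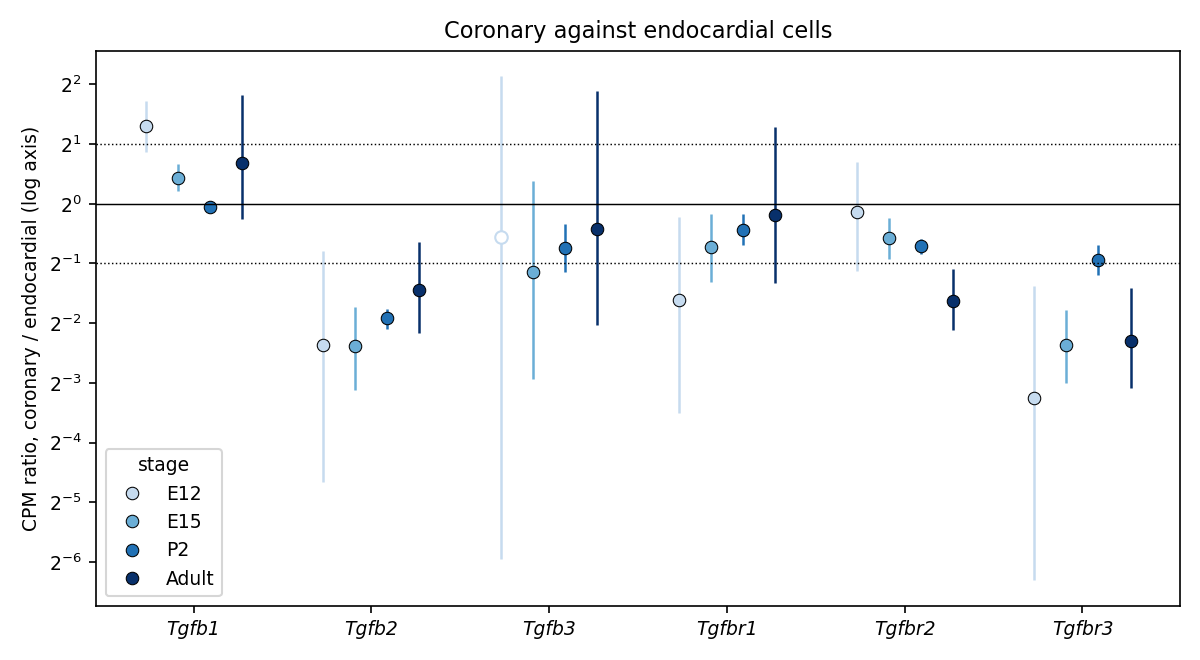
Ratio of the coronary to the endocardial level of each gene on a log axis, 1 point per stage (E12 palest, Adult darkest), with bars for the 95% counting interval, a solid line at 1 and dotted lines at 2-fold; open points had fewer than 20 UMIs. All 4 points of Tgfb2 and of Tgfbr3 lie below 1, and the E12 point of Tgfb1 lies at 2.48.

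In the change from stage to stage, 18 endocardial ratios were measured, of which 1 passed 2-fold higher and 2 lower, against 9.27% and 7.31% over all genes. Of 17 coronary ratios, 2 passed 2-fold higher and 1 lower, against 13.7% and 8.53% over all genes. The calls were those described above for Tgfb1, Tgfb3 and Tgfbr3, together with Tgfb2 in coronary cells from E15 to P2. That ratio was 2.15 (1.39 to 3.50), and it was 1.80 to 1.99 under 6 settings, which included the one without lymphatic cells. The median ratio over all genes from E15 to P2 was 1.18 in endocardial and 1.24 in coronary cells.

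Shares of cells with a UMI were read beside the depth of the libraries. Tgfb1 was found in 57.9% of endocardial and 57.3% of coronary cells at P2, the deepest library, but in 10.6% of Adult coronary cells. To set the depth equal, each cell was thinned to 500 UMIs. Tgfb1 was then found in 13.3% of coronary and 5.18% of endocardial cells at E12, against 43.4% and 12.7% without thinning. Tgfb2 was found in 4.81% of endocardial and 1.35% of coronary cells at P2, against 29.9% and 8.68% unthinned. Tgfbr3 was found in 4.67% of endocardial and 0.758% of coronary cells at E15, and Tgfbr2 in 8.32% and 4.18% at P2. In these cases the direction was the same as that of the CPM. It was the other way for Tgfbr2 at E12, found in 2.71% of endocardial and 3.54% of coronary cells, the latter 4 cells. Adult Tgfb3 also went the other way, found in no endocardial cell and in 0.613% of coronary cells. Adult Tgfbr2 was found in 3 of 75 endocardial cells and 3.12% of coronary cells. Adult Tgfbr3 was found in 1 endocardial cell (1.33%) and 0.883% of coronary cells. In 37 E12 cells rich in hemoglobin RNA, Tgfb1 was found in 1 cell (2.70%) and Tgfbr1 in 3 (8.11%), without thinning. The other 4 members were found in none, which allows up to 44.4 CPM. The unthinned shares of E12 endocardial cells were 12.7% for Tgfb1 and 6.76% for Tgfbr1. The median cell rich in hemoglobin RNA held 1851 UMIs against 1276 in endocardial cells.

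Free RNA was measured in the E12 library, the one with droplets outside the cells in its table. In 156821 droplets of at most 100 UMIs, Tgfb1 was at 116 CPM (93.0 to 144), Tgfb2 at 65.8 CPM (48.5 to 87.2) and Tgfbr1 at 49.3 CPM, close to the endocardial levels of 97.8, 63.5 and 50.1 CPM. Tgfb3 was at 11.0, Tgfbr2 at 35.6 and Tgfbr3 at 43.8 CPM, the latter 2 below their endocardial levels. The E12 coronary levels of Tgfb2 and Tgfbr3, 12.3 and 8.23 CPM, were below those of the droplets, and that of Tgfb1, 243 CPM, was above. How much of a cell's UMIs came from free RNA was not tested.

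Members were also counted together in single cells. At P2, the deepest library, Tgfbr1 was found in 13.7% of endocardial and 10.9% of coronary cells, Tgfbr2 in 45.4% and 31.4%, and both receptors in 6.65% and 3.96%. A ligand was found in 70.6% of the endocardial and 61.9% of the coronary cells, and a ligand together with Tgfbr2 in 34.0% and 21.5%. Tgfb1 and Tgfb2 were found together in 18.4% of endocardial against 5.24% of coronary cells. The medians were 4532 and 4562 UMIs per cell, and depth was not set equal for these shares.

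Within the coronary class, the Tgfb2 level was higher in cells with artery genes at P2 and in the Adult. Coronary cells with any UMI of Npr3, Tmem108 or the lymphatic genes were left out here, because among all P2 coronary cells those with at least 2 UMIs of the large artery genes Fbln5, Eln and Gkn3 also held 3055 CPM of lymphatic and 756 CPM of mesenchymal markers, against 152 and 87.1 CPM in the rest. At P2 the Tgfb2 level was 42.9 CPM in 491 cells with at least 2 UMIs of Gja4, Gja5, Bmx and Hey1, the artery genes, and 6.79 CPM in the 2703 cells without, a ratio of 6.31 (4.72 to 8.46). In the Adult it was 90.2 CPM in 384 cells with and 20.2 CPM in 3568 cells without, a ratio of 4.45 (3.32 to 5.95). The 491 artery cells thus held 110 UMIs of Tgfb2 at P2 and the far more numerous other cells 87. With the large artery genes the ratio was 6.20 (4.65 to 8.29) at P2, then 4.86 (3.65 to 6.46) among Adult cells. Over all P2 coronary cells, lymphatic ones included, the ratio was 2.04 (1.72 to 2.40) with artery and 4.05 (3.45 to 4.77) with large artery genes. At E15 the 85 artery cells among all coronary cells held 1 UMI of Tgfb2 between them, 7.70 against 12.9 CPM (ratio 0.597, 0.0144 to 3.73), and the 73 of these without endocardial or lymphatic UMIs held none. With large artery genes the E15 ratio over all coronary cells was 3.26 (0.797 to 9.99), from 4 UMIs. Among all Adult coronary cells, those with artery genes also held 465 against 101 CPM of the endocardial genes from Plagl1 to Gata4 and 488 against 202 CPM of mural markers, and the part of these in the Tgfb2 value was not tested. Cells with at least 2 UMIs of the vein genes Vwf, Prss23 and Nr2f2 had a ratio of 1.62 (1.08 to 2.37) at P2, then 0.570 (0.207 to 1.26) among Adult cells. In P2 cells with Apln or Kcne3, genes of angiogenic capillaries, Tgfb2 was at 5.77 CPM against 14.4 CPM in the rest, a ratio of 0.402 (0.225 to 0.670).

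Tgfb1 and the 3 receptors stayed within 2-fold along the vessel tree at P2 and in the Adult. Tgfbr2 was 1.55 times as high in P2 artery cells (1.34 to 1.79) and 0.646 times in P2 angiogenic capillary cells (0.535 to 0.776). Tgfb1 was 0.673 times in Adult artery cells (0.482 to 0.919) and 1.08 times at P2. Tgfb3 passed 2-fold in Adult cells with large artery genes, at 2.28 (1.33 to 3.79), and with vein genes, at 2.50 (1.10 to 5.04). Over all Adult coronary cells these ratios of Tgfb3 were 2.22 and 2.16, and they turned to 0.604 and 0.695 when the classes were drawn on counts thinned to 500 UMIs. In P2 angiogenic capillary cells Tgfb3 was at 2.16 against 5.16 CPM, a ratio of 0.419 (0.148 to 0.963) from 6 UMIs. Mural markers summed to 1344 CPM in all Adult coronary cells with vein genes against 165 CPM in the rest, and mesenchymal markers to 487 against 89.5 CPM. With large artery genes the mural markers summed to 412 against 209 CPM and the mesenchymal ones to 451 against 50.7 CPM. The part of such RNA in the Tgfb3 values was not tested. The groups also differed in depth, the median being 2212 UMIs in all Adult artery cells and 1429 in the rest.

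**Figure D3:**
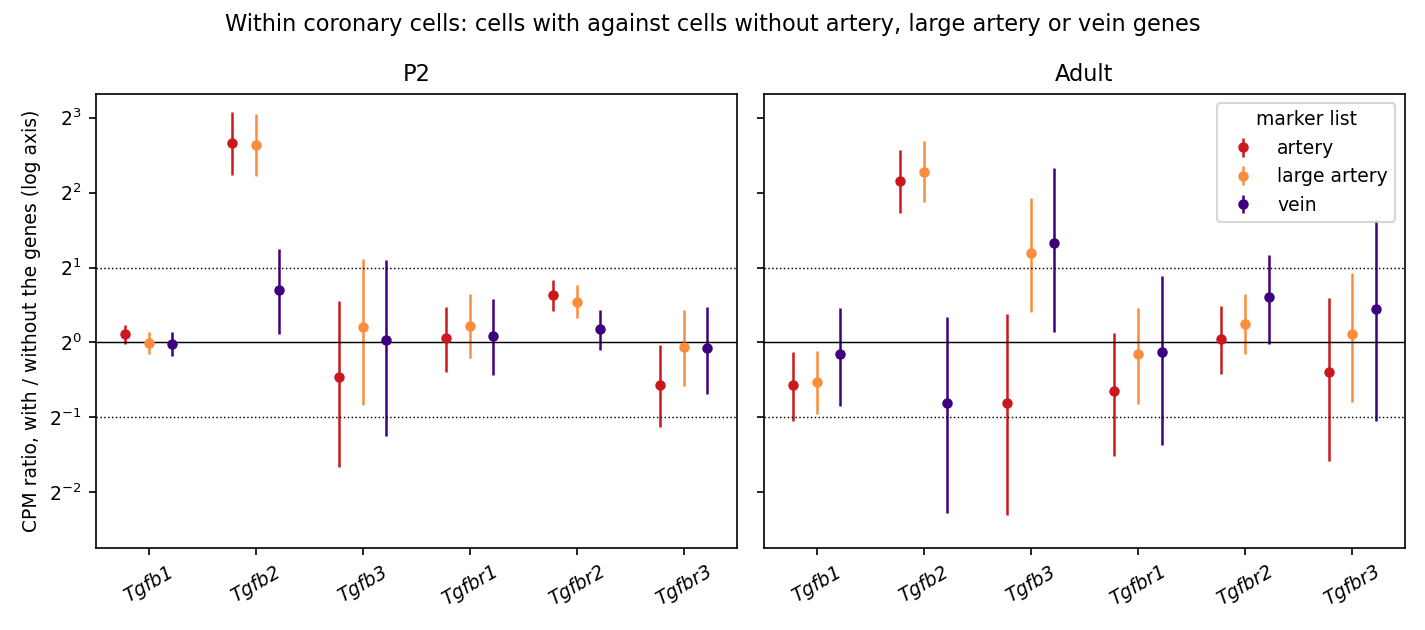
Ratio of each gene's level in coronary cells with at least 2 UMIs of artery, large artery or vein genes to that in coronary cells without, on a log axis, at P2 (left) and in the Adult (right), with bars for the 95% counting interval and cells with endocardial or lymphatic UMIs left out. Tgfb2 stands at 6.31 and 6.20 for the artery lists at P2, then at 4.45 and 4.86 among Adult cells, while Tgfb1 and Tgfbr1 lie within 2-fold.

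Against the endocardial cells outside the valve rule, cells of the valve class differed in few members. Of 17 ratios, 1 passed 2-fold higher and 2 lower, against 9.83% and 5.69% over all genes. All 3 rest on at most 4 valve UMIs and have intervals that include 1, namely Tgfbr2 at E12 with 2.07 (0.556 to 5.43), Tgfb2 at E15 with 0.289 (0.0347 to 1.06) and Tgfbr3 at E15 with 0.458 (0.124 to 1.19). At P2, where the class held 427 cells, no member passed 2-fold. There Tgfb3 was at 22.0 CPM against 11.6 CPM (ratio 1.89, 1.27 to 2.83), Tgfbr3 at 19.6 against 39.0 CPM (0.504, 0.359 to 0.695), and Tgfb1 at 221 against 216 CPM (1.02, 0.921 to 1.14). Of these valve cells 145 were also endocardial and 235 also coronary, and P2 lymphatic cells held 33.5 CPM of Tgfb3. Tgfb3 had no UMI in the valve class at E12 and E15, which allows up to 85.3 and 28.6 CPM.

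Against endocardial and coronary cells that held an endothelial gene, the non-endothelial cells had the higher level of Tgfb3 at every stage. The Tgfb3 ratio was 6.48 (2.65 to 20.6) at E12, from 17.4 against 2.68 CPM, 6.46 (3.27 to 13.9) at E15, from 21.0 against 3.26 CPM, 4.77 (0.978 to 14.1) at P2 from 3 UMIs, and 10.4 (6.17 to 17.1) in the Adult, from 89.5 against 8.58 CPM. At E12, E15 and in the Adult it stayed past 2-fold under all 12 other settings. In the Adult, 101 of the 133 non-endothelial cells also met the coronary rule. Tgfb2 was at 127 against 41.3 CPM at E12, a ratio of 3.09 (2.43 to 3.97). At E15 it was at 71.4 against 40.6 CPM, a ratio of 1.76 (1.38 to 2.24), and the ratio was 1.11 (0.229 to 3.25) at P2, then 0.859 (0.342 to 1.80) among Adult cells. Tgfb1 was at 64.2 against 125 CPM at E12, a ratio of 0.514 (0.429 to 0.615) just short of 2-fold, and its ratio was 0.621 at E15.

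At E12 the type II receptor and the co-receptor were lower in the non-endothelial cells. Tgfbr2 was at 26.3 CPM in non-endothelial cells against 63.8 CPM (ratio 0.412, 0.315 to 0.539), and Tgfbr3 at 24.4 against 81.5 CPM (ratio 0.299, 0.230 to 0.387). Tgfbr1 was at 66.1 against 40.2 CPM, a ratio of 1.64 (1.27 to 2.15). The E12 non-endothelial cells therefore held relatively more RNA of the ligand Tgfb2 and less of the type II receptor than endothelial cells of the same library. In the Adult, Tgfbr3 was at 35.0 against 15.9 CPM, a ratio of 2.20 (0.981 to 4.32) that included 1. Of 24 ratios in this comparison 7 passed 2-fold higher and 3 lower, against 11.3% and 7.49% over all genes. At P2 the class held 13 cells and the median ratio over all genes was 2.00, and Tgfb1 (0.210), Tgfbr1 (2.46) and Tgfb3 passed 2-fold there on 3 or 4 UMIs each.

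Marker genes of other cells divided the non-endothelial class further. At E12, 1424 of its 2995 cells were assigned to the mesenchymal markers Col1a1, Col3a1, Postn, Vcan and Sox9. In these the Tgfb2 level was 164 CPM (148 to 181), that of Tgfb3 22.1 CPM (16.4 to 29.0) and that of Tgfbr1 79.3 CPM (68.2 to 91.6), while Tgfbr2 was at 20.4 CPM and Tgfbr3 at 8.23 CPM (4.95 to 12.8). In the 612 mesenchymal cells at E15 Tgfb2 was at 107 CPM (87.1 to 131) and Tgfbr3 at 13.4 CPM. The Adult value of Tgfb3 came from 35 mesenchymal cells with 143 CPM (83.2 to 229) and 25 mural cells with 89.7 CPM (29.1 to 209). The 5 E12 cells with platelet genes held 7 UMIs of Tgfb1, or 773 CPM (311 to 1593). These UMIs were in 2 cells, and 5 of them came from 1 cell. A cell was left unmarked where it held under 3 UMIs of every such list or where lists tied. Unmarked cells numbered 1433 at E12 and 1204 at E15, with Tgfbr3 at 50.3 and 57.2 CPM. They can still hold some marker UMIs, since 75.4% of all non-endothelial cells at E12 and 50.6% at E15 held a mesenchymal one. Of the unmarked cells, 397 and 630 met the endocardial or coronary rule.

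**Figure D4:**
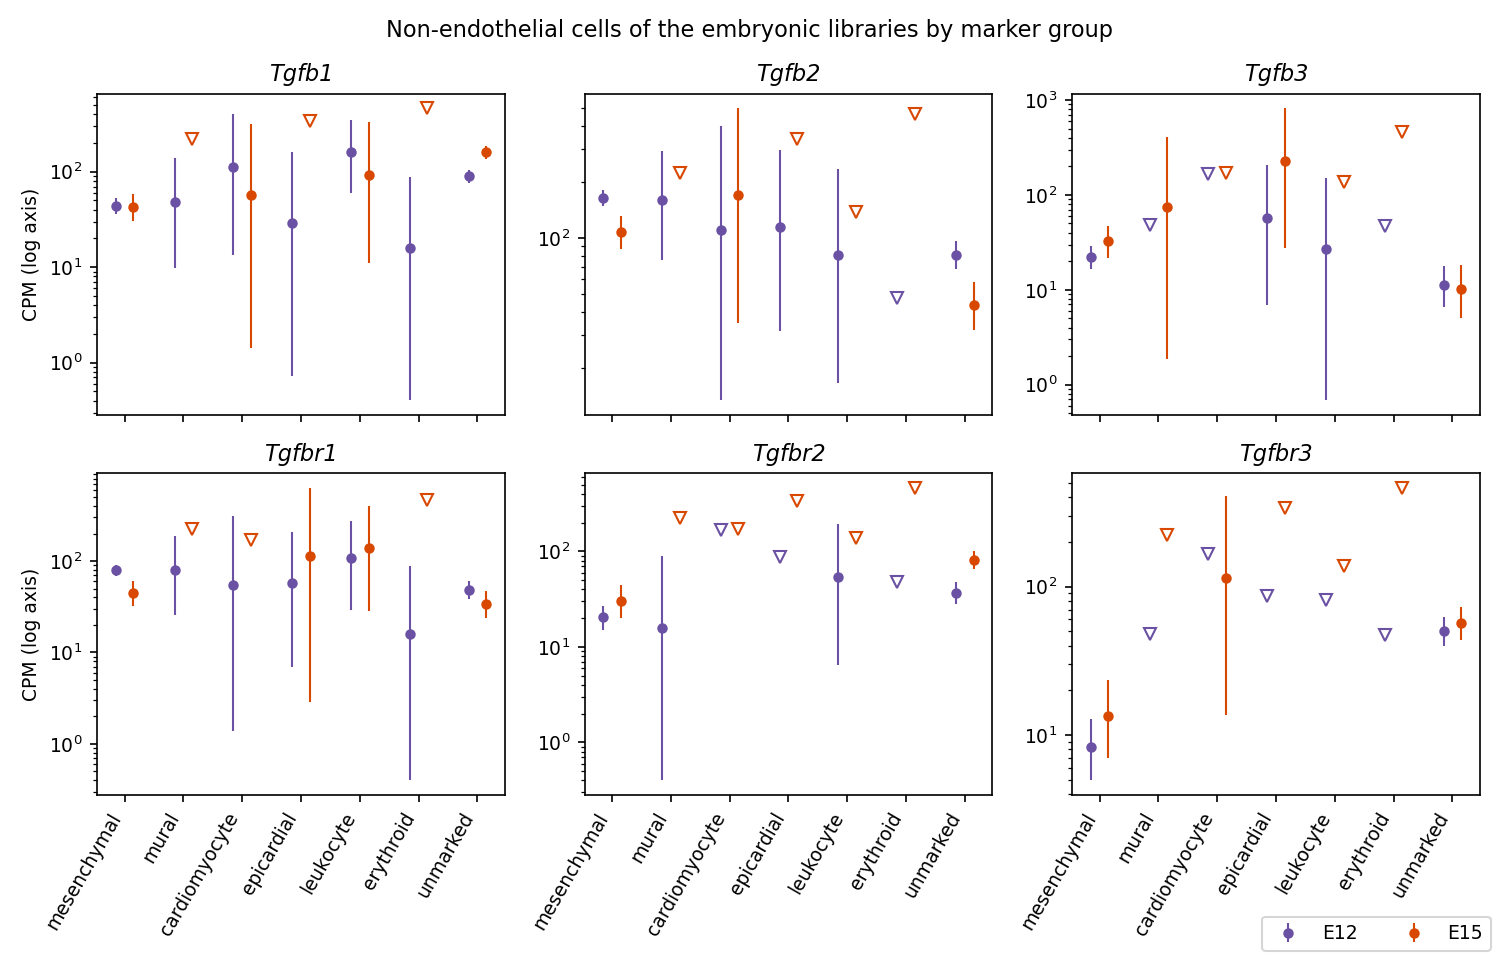
Levels of the 6 genes in the non-endothelial cells of the E12 (purple) and E15 (orange) libraries, divided by marker genes, as CPM on a log axis with bars for the 95% counting interval and open triangles for the limit where no UMI was found. In mesenchymal cells at E12 Tgfb2 is at 164 CPM and Tgfbr3 at 8.23 CPM, and the groups other than mesenchymal and unmarked hold 46 cells or fewer.

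A list of 54 other genes of the pathway was followed in the same comparisons. Between coronary and endocardial cells, 47 had enough UMIs at E12, 48 at E15, 51 at P2, then 47 among Adult cells, of which 20, 14, 12 and 13 passed 2-fold lower and 2, 4, 11 and 9 higher. Over all genes 17.4%, 12.4%, 10.4% and 13.9% were lower at these stages and 5.37%, 5.66%, 11.0% and 12.2% higher. Among the 14 genes of latency and activation, which store and release the ligands, 5 of 10 were lower at E12, 5 of 11 at E15, 3 of 11 at P2, then 4 of 11 among Adult cells. Among the 16 transducers and inhibitors, 3 of 16 were lower at E12, a share near that of all genes, and at most 1 at the later stages. Among the surface regulators 3 of 5 were lower and none higher at E12, 3 of 7 lower and 2 higher at E15, 3 of 8 lower and 2 higher at P2, and 4 of 7 lower and 1 higher in the Adult.

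Eng and Acvrl1, the endothelial co-receptor endoglin and the endothelial type I receptor ALK1, went opposite ways. Eng was lower in coronary cells at all 4 stages, with ratios of 0.463, 0.490, 0.426 and 0.351. Acvrl1 was higher, with 2.16 (1.40 to 3.38) at E15, 3.43 (2.76 to 4.31) at P2, then 6.04 (2.93 to 15.1) among Adult cells, the E12 ratio resting on under 20 UMIs. Acvrl1 also rose 3.52 times from P2 to Adult in coronary cells (3.27 to 3.79), in the step in which Tgfb1 fell. Smad2 and Smad4, the receptor-activated and the common Smad, stayed within 2-fold between the classes, with 0.939 to 1.17 and 0.775 to 1.08. Smad3 was lower in coronary cells at P2, at 0.256 (0.175 to 0.375), and Smad7, the inhibitory Smad, at E12 only, at 0.458 (0.195 to 0.921).

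Among genes known to respond to TGF-beta, 9 of 16 were lower in coronary cells and 1 higher at E12. At E15, 6 of 14 were lower and none higher. At P2, 5 of 16 were lower and 7 higher, and in the Adult 4 of 15 lower and 5 higher. The shares over all genes at these stages were 17.4%, 12.4%, 10.4% and 13.9% lower and 5.37%, 5.66%, 11.0% and 12.2% higher. The list includes Col1a1, Col3a1 and Postn, which are also mesenchymal markers. The mesenchymal markers summed to 1110 CPM in endocardial against 251 CPM in coronary cells at E12, and to 914 against 333 CPM at E15. The part of mesenchymal RNA in these counts was not tested. Ctgf, a matrix-associated growth factor, had a ratio of 1.74 (0.658 to 3.91) at E12 and 0.728 (0.373 to 1.37) at E15. It was past 2-fold lower with 0.489 at P2, then 0.103 (0.0621 to 0.179) among Adult cells. In the non-endothelial class 12 of 16 responsive genes were higher at E12, 12 of 16 at E15, 10 of 16 at P2, then 8 of 15 among Adult cells, against 9.94%, 7.21%, 14.8% and 12.6% over all genes. Several of them, such as Col1a1 and Postn, also served as mesenchymal markers.

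By size, the pathway genes most raised in coronary cells were Cd109 (58.2 times at E15, from 2 endocardial UMIs), Acta2 (25.6 times in the Adult, from 1 endocardial UMI) and Acvrl1, and those most lowered were Postn (0.0535), Ctgf and Lrg1 (0.120), all in the Adult. In the valve class those raised included Lrg1 (7.83) at P2 and Col3a1 (7.72) in the Adult, and those on the lower side were Lrg1 (0.0536) and Ctgf (0.204) in the Adult, with 1 and 2 valve UMIs, and Tgfbi (0.175) at E15. In the non-endothelial class they were Col1a1 (161), Tagln (143) and Acta2 (66.9) among 13 cells at P2, against Nrp1 (0.202) and Eng (0.278) at P2 and Cd109 (0.246) at E15. Most of these extremes thus rest on few UMIs or few cells.

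Between stages, the genes that rose in endocardial cells from P2 to Adult included Lrg1 (29.5 times) and Ctgf (11.5), whereas Tagln (0.0135), Col1a1 (0.0436) and Acta2 (0.0486) fell most from E15 to P2. In coronary cells Tagln (33.3) and Acta2 (18.1) rose from P2 to Adult and Cd109 (11.6) from E12 to E15. Tagln (0.0653) fell there from E15 to P2, and Twist1 (0.0889) and Tgfbi (0.128) from P2 to Adult. Tagln and Acta2 encode smooth muscle proteins, and the summed level of the mural markers in coronary cells was 42.2 CPM at P2, then 241 CPM among Adult cells. In endocardial cells the mural markers summed to 63.8 CPM at E15 and 10.4 CPM at P2, and the mesenchymal markers to 914 and 916 CPM. Of the endocardial cells, 545 of 2115 at E15 and 0 of 1082 at P2 were also in the non-endothelial class. The part of this makeup in the changes between stages was not tested.

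The patterns of the 6 members over the 16 levels of 4 classes and 4 stages were compared as Pearson correlations of log2 of CPM plus 10. Between members, the highest was 0.55 for Tgfb2 and Tgfbr1 and the lowest was -0.61 for Tgfb1 and Tgfb3. Over 10526 genes, the most like Tgfb1 were Zfp706 (0.854), Nudt4 (0.851) and Homer3 (0.850), and the most like Tgfb2 were 5033428I22Rik (0.884), Dsg2 (0.876) and Pofut2 (0.865). For Tgfb3 they were Pid1 (0.938), Dclk1 (0.916) and Gfpt2 (0.908), and for Tgfbr1 Msi2 (0.862), Asnsd1 (0.856) and Ptprs (0.850). For Tgfbr2 they were Pgm5 (0.892), Enpp6 (0.870) and Cyb5a (0.848), and for Tgfbr3 Lrig1 (0.890), Foxc1 (0.832) and Kcnq1ot1 (0.831). These values describe 16 points that share libraries and in part cells, and the small classes weigh as much as the large ones.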

How the data were processed

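Single-cell RNA-seq of 4 sorted heart samples (10x Genomics, C57Bl6J mice) was analysed from the deposited count matrices, in which the authors had counted UMIs per gene and barcode; the submitters' processing notes name Cell Ranger 2.2 and the build mm10. The E12 matrix held 737280 barcodes, of which 5732 with at least 452 UMIs were kept (the rule of 0.1 times the 0.99 quantile of the top 3000 barcodes), holding 88.7% of its UMIs, and the other 3 matrices were used whole. Cells held 8122358, 7079759, 29645059 and 7650091 UMIs at E12, E15, P2 and Adult. Doublets were left in, except in one alternative.

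UMIs were summed per class and stage with Python 3.11.15, numpy 2.4.6, scipy 1.17.1, pandas 2.3.3 and scanpy 1.11.5. Levels have exact Poisson intervals, shares exact Clopper-Pearson intervals and ratios exact conditional binomial intervals, all at 95%. A count of 0 is given the limit of 3 UMIs. Ratios were taken for all genes, tested on simulated data, and called past 2-fold at 20 or more UMIs. Labels do not say which animals a cell came from, so cells were not replicates and no p-value was computed. The text names the 6 members, 8 fixed pathway genes, the 3 pathway genes with the largest ratio per comparison and direction, and the 3 genes most correlated with each member. Of the pathway genes that this rule names, 1 is not reported here, and it is still counted in the list totals. Members and lists were chosen with earlier results of these data known. Positions are from the GENCODE annotation of GRCm38 and promoters from RefSeq, which held 4 of the 6 members. A ratio was recomputed under 10 alternatives listed beforehand and 2 added after seeing the data. The added ones left out lymphatic cells, and cells holding markers of both classes. The listed one with no minimum of UMIs keeps the same counts, so it could not move a called ratio.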

Additional observations from a re-analysis of the deposited data

Results flagged for a closer look

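Tgfbr3, the co-receptor betaglycan, passed 2-fold in opposite directions at different stages between non-endothelial cells and endocardial and coronary cells. Its ratio was 0.299 (0.230 to 0.387) at E12, from 101 and 152 UMIs, and 2.20 (0.981 to 4.32) in the Adult, from 9 and 115 UMIs. With 1 library per stage this difference was not tested, the Adult interval includes 1, and the Adult ratio was 1.17 with classes drawn on thinned counts. The 2 classes also differed in makeup, with 1424 of 2995 cells assigned to mesenchymal markers at E12 and 35 of 133 in the Adult.

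Droplets of the E12 library outside the cells, which no comparison used, held UMIs of all 6 members. Their levels were 116 CPM for Tgfb1, 65.8 CPM for Tgfb2, 11.0 CPM for Tgfb3, 49.3 CPM for Tgfbr1, 35.6 CPM for Tgfbr2 and 43.8 CPM for Tgfbr3, each from more than 3 UMIs.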

How the results depend on the processing

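Of the 99 member ratios with enough UMIs, 30 passed 2-fold, 23 of them with an interval that excluded 1. Of the 30, 17 stayed past 2-fold under every one of the 12 other settings that gave a value, 13 fell short under at least 1, and 0 changed direction. The count of stage ratios past 2-fold in endocardial cells was 3, and it became 5 within the study's upper limits on UMIs, genes and mitochondrial share, 5 when barcodes with high doublet scores were also removed, and 1 in cells with at least 1000 UMIs. The count of valve ratios was 3, and it became 5 with class rules of 1 more UMI, 5 with classes drawn on counts thinned to 500 UMIs, 5 without the cell with most UMIs of each gene, and 5 with no minimum of UMIs. The other 3 counts stayed within 1.5 times. Over all cells of the Adult coronary class, a pair of Tgfb3 ratios changed direction where the classes were drawn on thinned counts. With large artery genes its ratio went from 2.22 to 0.604 and with vein genes from 2.16 to 0.695, and the cause was not tested. With thinned counts the E12 coronary class held no UMI of Tgfb2, so that ratio had no value. No paired analysis was possible because each stage is 1 sample, numbered replicate 1, and no replicate could be left out. Few cells limit the Adult endocardial, the valve and the P2 non-endothelial values.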

Other observations

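Dividing cells, with at least 2 UMIs of Mki67, Top2a, Ube2c and Ccnb2, were compared with the others of their class. Among P2 coronary cells Tgfb2 was at 12.9 CPM in 884 dividing cells and 32.0 CPM in 3712 others. Tgfbr3 was at 11.5 CPM (9.06 to 14.5) and 21.8 CPM (19.7 to 24.1), while Tgfb1 was at 204 CPM (193 to 215) and 214 CPM (207 to 221). Among E12 endocardial cells Tgfbr2 was at 32.7 CPM in 239 dividing cells and 60.4 CPM in 1477 others, and Tgfbr3 at 46.2 CPM (29.6 to 68.7) and 87.0 CPM (74.4 to 101). At E15, Tgfbr3 did not show this, with 88.2 CPM (57.1 to 130) in 142 dividing endocardial cells and 82.3 CPM (70.7 to 95.3) in the others.

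Cells with at least 2 UMIs of the lymphatic genes Prox1, Mmrn1 and Ccl21a numbered 29 at E12, 75 at E15, 277 at P2, then 24 among Adult cells. Their Tgfbr2 level was 71.3 CPM (19.4 to 183) at E12, 154 CPM (88.2 to 251) at E15, 144 CPM (127 to 163) at P2, then 278 CPM (165 to 439) among Adult cells, against 49.4, 61.9, 84.0 and 55.8 CPM in the coronary class. The 2 groups shared cells, as the coronary class held 4596 cells at P2 and 4353 without lymphatic cells, and 4077 and 4060 in the Adult. Tgfb2 had no UMI in the lymphatic cells at E12 and E15, which allows up to 53.5 and 28.9 CPM. It was at 45.0 CPM (35.6 to 56.2) in those at P2. Tgfbr3 was at 124 CPM (53.3 to 243) in the 24 Adult cells, from 8 UMIs.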
